A study of Mus musculus with 4 samples.

Results

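The genes described here encode the muscle transcription factors built around serum response factor and the MEF2 family, namely Myocd, Mef2a, Mef2b, Mef2c, Mef2d, Srf, Mkl1, Mkl2 and Hopx. The 9 genes were found by their symbols among 20701 genes of an RNA-Seq table, and for each gene the transcript entry with the highest summed raw count over the 4 libraries was kept. The study asked what the LIM-homeodomain factor Isl1 does in cardiac progenitor cells (CPCs). Mouse E14 Tg(Nkx2-5-EmGFP) embryonic stem (ES) cells, in which green fluorescent protein reports Nkx2-5, were differentiated for 5 days and GFP-positive CPCs were sorted. The 2 control libraries came from different clones with intact Isl1, and the 2 Isl1-/- libraries came from different clones in which Isl1 was deleted with CRISPR/Cas9. Both groups carried the same reporter transgene, and the ES cells of both had been grown on mitomycin-treated embryonic fibroblasts as feeders. Each Isl1-/- library is 1 clone, so a difference private to a clone cannot be told apart from the effect of the deletion within that library. GEO's design text speaks of shRNA knockdown, whereas the sample titles and the methods name knockout clones, and the titles were followed.

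SRF is a MADS-box protein that binds CArG boxes in the promoters of both contractile and immediate early genes. It has little activity of its own, and the choice between those programmes is made by coactivators. Myocardin, encoded by Myocd, is the coactivator found in cardiac and smooth muscle, whereas the myocardin-related factors encoded by Mkl1 and Mkl2 are widely expressed and move to the nucleus when monomeric actin is depleted. The MEF2 proteins are MADS-box relatives of SRF that bind an A/T-rich site in muscle promoters, and Mef2c is needed for looping and right ventricular growth of the mouse heart. Hopx encodes a homeodomain-only protein that does not bind DNA and restrains SRF in the heart.

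The kept entries held 8821517 and 9147425 counts in control clones 1 and 2, and 13186109 and 11388333 counts in Isl1-/- clones 1 and 2. A count of 3 corresponds to 0.231 to 0.341 CPM (counts scaled to library size) in these libraries. The control clones were close to sampling noise of each other, the chi-square of their counts over genes being 1.13 per degree of freedom. The Isl1-/- clones were further apart at 17.7. The fit of all 4 libraries gave each gene 1 spread for both groups, so SEs and intervals do not carry this inequality. Isl1 itself had 309 and 326 counts in the control clones and 17 and 24 in Isl1-/- clones 1 and 2, and fell by 4.39 on the log2 scale (SE 0.212, adjusted p = 0.00277). Nkx2-5, the gene whose reporter was used for the sort, fell from 20.5 ± 0.925 to 4.55 ± 0.303 CPM (SD, n = 2 clones; adjusted p = 0.00703). Summed markers of cardiac progenitors stood at 1054 and 1044 CPM in the control clones and at 687 and 702 CPM in the Isl1-/- clones. Of these 8 markers 4 fell, namely Tbx5, Isl1, Nkx2-5 and Hand2, beside 1.94% of all genes tested called lower. Isl1 is the deleted gene, so its fall follows from the design. The sum was carried by Pdgfra, Kdr and Tbx20, which did not pass the test. All p-values here are from edgeR's quasi-likelihood test with Benjamini-Hochberg adjustment over 12715 genes unless another test is named, and a gene was called past an adjusted p of 0.05. With 2 clones against 2 an exact permutation test cannot go below 0.33.

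Among the 9 factors, Myocd and Mef2c fell in the Isl1-/- CPCs by 19.7-fold and 18.7-fold, and the others did not pass the test. Thus 2 of the 8 members that could be tested were called, beside a background of 2.45% of all genes tested in either direction, 1.94% in the lower and 0.503% in the higher direction. Myocd and Mef2c remained at 5.07% and 5.34% of their control level. The broadly expressed relatives had fitted differences between -0.37 and -0.096 on the log2 scale, and Hopx lay between these and the called pair. In bulk RNA, fewer expressing cells and less RNA per cell cannot be told apart.

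**Figure D1:**
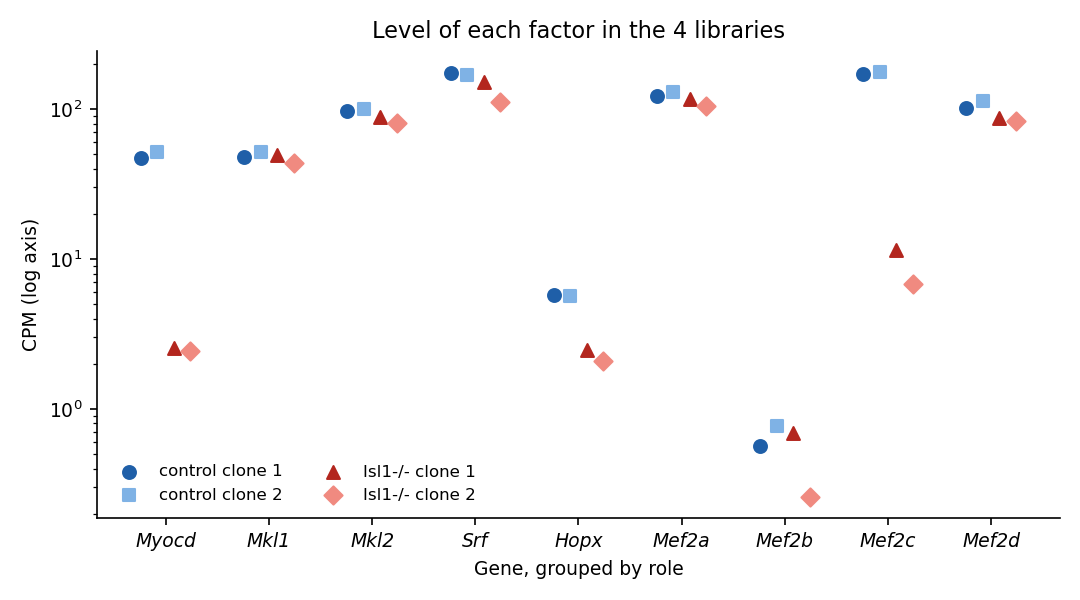
Level of each factor in CPM on a log axis, with 1 point per library and blue for control and red for Isl1-/- clones. Myocd (2.43 to 2.54 against 47.0 to 51.4 CPM) and Mef2c (6.85 to 11.5 against 171 to 177 CPM) lie far below control in both Isl1-/- clones, whereas Mkl1 and Mef2b overlap between groups.

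The promoters of 3 members are shown because they hold sites for the factors discussed here or, for Mef2c, because the gene fell. RefSeq promoter windows on build GRCm38.p6 (250 bases before to 50 after each start) were matched for 8 of the 9 members, all but Myocd, giving 14 windows. Only the 250 bases before the start are printed, 5′ to 3′ on the gene's strand. Capitals mark CArG boxes, the SRF site, in Srf at chr17:46556163-46556412 on the minus strand and in the first Hopx window at chr5:77115124-77115373 on the minus strand.
Srf: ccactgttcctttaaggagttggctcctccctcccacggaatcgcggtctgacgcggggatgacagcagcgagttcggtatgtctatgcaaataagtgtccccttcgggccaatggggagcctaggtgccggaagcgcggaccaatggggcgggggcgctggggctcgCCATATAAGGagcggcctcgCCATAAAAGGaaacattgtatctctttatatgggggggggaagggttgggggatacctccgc
Hopx, first window: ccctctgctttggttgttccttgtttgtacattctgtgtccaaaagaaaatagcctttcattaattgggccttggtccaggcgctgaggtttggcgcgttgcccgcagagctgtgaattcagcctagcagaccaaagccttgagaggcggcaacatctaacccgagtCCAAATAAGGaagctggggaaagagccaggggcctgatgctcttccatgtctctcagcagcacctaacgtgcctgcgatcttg
The Srf promoter held 2 CArG boxes, at 82 to 73 and at 62 to 53 bases before the start, and the Hopx window held 1 at 83 to 74 bases before it. A CArG box was found on either strand in 1.63% of all 32851 windows. The MEF2 site, present in 1.86% of all windows, was found in 1 member window, that of Mef2a, where its letters CTAAAAATAG spanned the start site.

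For Mef2c, capitals mark TAAT on either strand, the core that homeodomain proteins recognise, in the windows at chr13:83503784-83504033 and chr13:83523406-83523655 on the plus strand.
Mef2c, first window: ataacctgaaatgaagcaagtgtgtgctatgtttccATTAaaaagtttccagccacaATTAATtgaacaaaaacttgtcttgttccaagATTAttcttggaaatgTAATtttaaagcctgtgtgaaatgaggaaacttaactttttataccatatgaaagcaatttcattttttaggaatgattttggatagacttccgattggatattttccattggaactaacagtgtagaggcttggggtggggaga
Mef2c, second window: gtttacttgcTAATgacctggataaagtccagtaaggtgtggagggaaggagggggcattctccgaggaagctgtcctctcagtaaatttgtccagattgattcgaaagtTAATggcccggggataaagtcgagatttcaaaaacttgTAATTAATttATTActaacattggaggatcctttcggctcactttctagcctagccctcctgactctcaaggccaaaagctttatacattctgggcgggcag
The first window held 5 TAAT matches and the second 6, counting overlapping matches on both strands, and the third Mef2c window, at chr13:83573357-83573606, held 1. At least 1 TAAT was present in 58.0% of all windows, so its presence is common. No CArG box or MEF2 site was found in these 3 windows. A match is a description of the letters and was not tested for binding.

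Srf (chr17:46683788-46693111 on mm9, the build of the deposited table) encodes the DNA-binding partner shared by the coactivators. It was measured at 173 and 169 CPM in the control clones and at 152 and 112 CPM in Isl1-/- clones 1 and 2. Both Isl1-/- values were below both control values, and clone 2 was the lower. The difference was -0.37 on the log2 scale (SE 0.152, 95% confidence interval -0.76 to 0.01) and did not pass the test (adjusted p = 0.223). On the per-length scale Srf was the most highly expressed member in both groups, at 23.6 ± 0.325 RPKM in control and 18.5 ± 3.52 RPKM in Isl1-/- CPCs.

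Myocd (chr11:64990063-65083491) encodes myocardin, the cardiac and smooth muscle coactivator of SRF. It had 414 and 470 counts in the control clones and 33 and 28 counts in Isl1-/- clones 1 and 2, which are 47.0, 51.4, 2.54 and 2.43 CPM. The groups were widely separated and the Isl1-/- clones were nearly equal. Myocd fell by 4.30 on the log2 scale (SE 0.137, adjusted p = 0.000695), a 19.7-fold lower level with a 95% confidence interval of 15.5 to 25.1. Its level remained measurable in both Isl1-/- clones, since the counts are above the floor of 3.

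Mkl1 (chr15:80842711-81021187) encodes the first of the actin-regulated relatives of myocardin. Its level was 48.1 and 51.9 CPM in control and 49.7 and 43.9 CPM in Isl1-/- clones 1 and 2. The groups overlapped. The difference of -0.096 on the log2 scale (SE 0.105) had a 95% confidence interval of -0.36 to 0.17 and an adjusted p of 0.625. Exons of Mkl1 overlap the coding gene Sgsm3 on the opposite strand, and those of Mkl2, Mef2d and Hopx overlap noncoding genes on the opposite strand. Reads were counted on both strands, so the reads of these overlaps cannot be told apart.

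Mkl2 (chr16:13256574-13417622), the other myocardin relative, was measured at 96.5 and 100.1 CPM in control and at 88.9 and 80.8 CPM in Isl1-/- clones 1 and 2. The groups did not overlap. The difference was -0.21 on the log2 scale (SE 0.0780, 95% confidence interval -0.41 to -0.01, adjusted p = 0.195). A fold as large as that of Myocd lies outside the intervals of both Mkl1 and Mkl2.

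Compared per length, Myocd made up 28.8% and 29.5% of the summed RPKM of the 3 SRF coactivators in the control clones. In the Isl1-/- clones its share was 2.20% and 2.35%. The coactivator pool as a whole measured 18.6 ± 0.863 RPKM in control and 12.3 ± 0.594 RPKM in Isl1-/- CPCs, 66.2% of the control sum. Mkl1 and Mkl2 together gave 13.2 RPKM in control and 12.0 RPKM in Isl1-/- CPCs, and each made up between 47.5% and 50.4% of the pool in the Isl1-/- clones. These shares are descriptions, with no test.

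Hopx (chr5:77515468-77544186) encodes the homeodomain-only inhibitor of SRF, and was expressed at a low level. It had 51 and 52 counts in the control clones and 32 and 24 counts in the deeper Isl1-/- libraries, which are 5.79, 5.69, 2.46 and 2.08 CPM. The groups did not overlap, and the spread within each was small. The difference was -1.33 on the log2 scale (SE 0.229, 95% confidence interval -1.91 to -0.75), a 2.51-fold ratio, and missed the threshold (adjusted p = 0.0616). Hopx passed when no filter on low counts was used (adjusted p = 0.0445 in edgeR), and did not in DESeq2 (adjusted p = 0.10).

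Mef2c (chr13:83643033-83806684) encodes the MEF2 factor of the early heart. It had 1502 and 1616 counts in the control clones and 150 and 79 counts in Isl1-/- clones 1 and 2, which are 171, 177, 11.5 and 6.85 CPM. Both Isl1-/- clones were far below control, and clone 2 was the lower of them. Mef2c fell by 4.23 on the log2 scale (SE 0.216, adjusted p = 0.00277), a level 18.7-fold lower with a 95% confidence interval of 12.8 to 27.4. In control CPCs it was second to Srf on the per-length scale at 15.5 RPKM, above Mef2a at 12.9 RPKM and Mef2d at 11.2 RPKM, and the ranges of these neighbours did not overlap. In Isl1-/- CPCs it was at 0.825 RPKM, where its range overlapped that of Hopx at 1.06 RPKM.

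Mef2a (chr7:74376049-74517744), a broadly expressed member of the family, was measured at 123 and 131 CPM in control and at 117 and 105 CPM in Isl1-/- clones 1 and 2. The groups did not overlap, and the difference of -0.19 on the log2 scale (SE 0.0822, 95% confidence interval -0.40 to 0.02) did not pass the test (adjusted p = 0.242). Mef2d (chr3:87946294-87976008), which is also widely expressed, stood at 102 and 114 CPM in control and at 86.9 and 83.1 CPM in Isl1-/- clones 1 and 2. Here too the groups were apart, by -0.34 on the log2 scale (SE 0.0822, 95% confidence interval -0.55 to -0.14), without passing after adjustment (adjusted p = 0.102). Mef2b (chr8:72676677-72691387), the family member linked mainly to B cells, had 5 and 7 counts in control and 9 and 3 counts in Isl1-/- clones 1 and 2, close to the floor of 3 counts. The groups overlapped, the gene was removed by the filter on low counts, and its exons are shared with the coding gene 2310045N01Rik on the same strand, so a difference in Mef2b was not detectable at this depth. Without the filter its difference was -0.44 on the log2 scale (SE 0.679, adjusted p = 0.762).

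The MEF2 pool had a different composition in the groups. Mef2c contributed 39.4% and 38.1% of the summed MEF2 RPKM in the control clones and 4.59% and 3.02% in Isl1-/- clones 1 and 2. Mef2a stood at 32.4% of the pool in control and at 53.4% in Isl1-/- CPCs, and Mef2d at 28.1% and 41.8%. The summed RPKM was 39.9 ± 1.95 in control and 21.6 ± 0.969 in Isl1-/- CPCs, which is 54.0% of control. Without Mef2c the sums were 24.5 and 20.7 RPKM. The larger shares of Mef2a and Mef2d thus stood beside levels that were below control for each of these genes in both Isl1-/- clones.

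**Figure D2:**
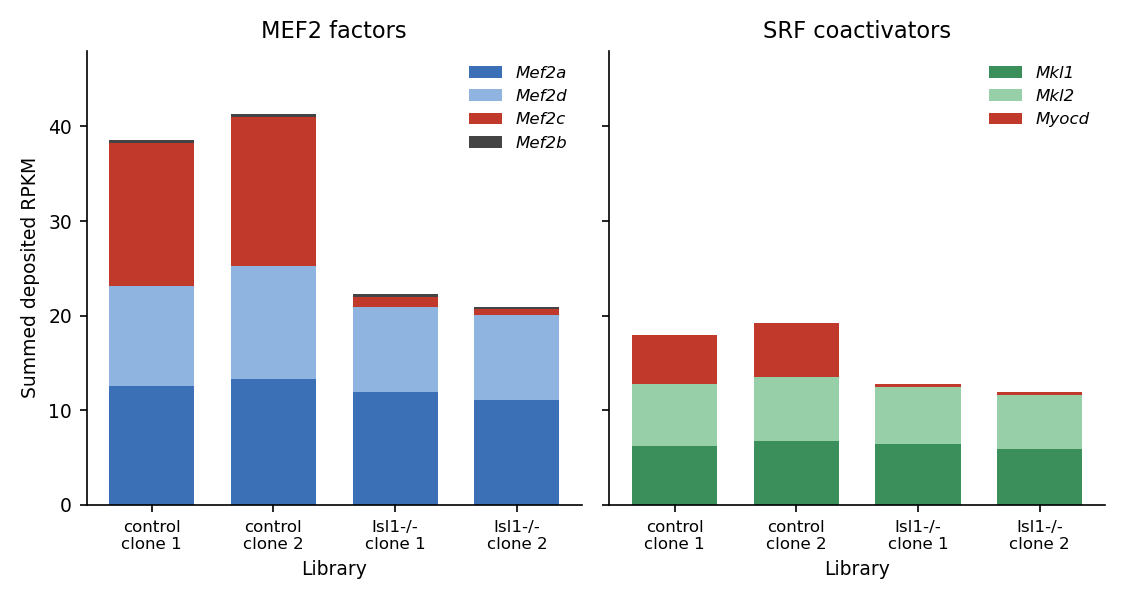
Deposited RPKM of the MEF2 factors (left) and of the SRF coactivators (right), stacked per library from 0. The red segment is Mef2c on the left (38.1% to 39.4% of the control sums, 3.02% to 4.59% of the Isl1-/- sums) and Myocd on the right (28.8% to 29.5%, then 2.20% to 2.35%), and the other segments sum to 20.24 to 25.55 RPKM on the left and to 11.63 to 13.55 RPKM on the right.

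Of the 8 tested members, 7 had both Isl1-/- clones below both control clones, all but Mkl1, beside 29% of all genes tested. All 8 fitted differences were negative, and their median was -0.36 on the log2 scale, against -0.0027 over all tested genes. By the criteria given in the study's methods, an unadjusted DESeq2 p under 0.05 and a log2 fold change beyond 0.58, Myocd, Mef2c and Hopx were the 3 members counted, beside 5.89% of 16855 genes in either direction and 4.57% lower. The call on the small differences depended on the Isl1-/- libraries. Without Isl1-/- clone 1, 7 members passed, and without Isl1-/- clone 2, 6 passed, in fits that called 6350 and 4176 genes in all and whose spread came from the control pair alone. Srf in particular ranged from -0.62 without clone 1 to -0.17 without clone 2.

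**Figure D3:**
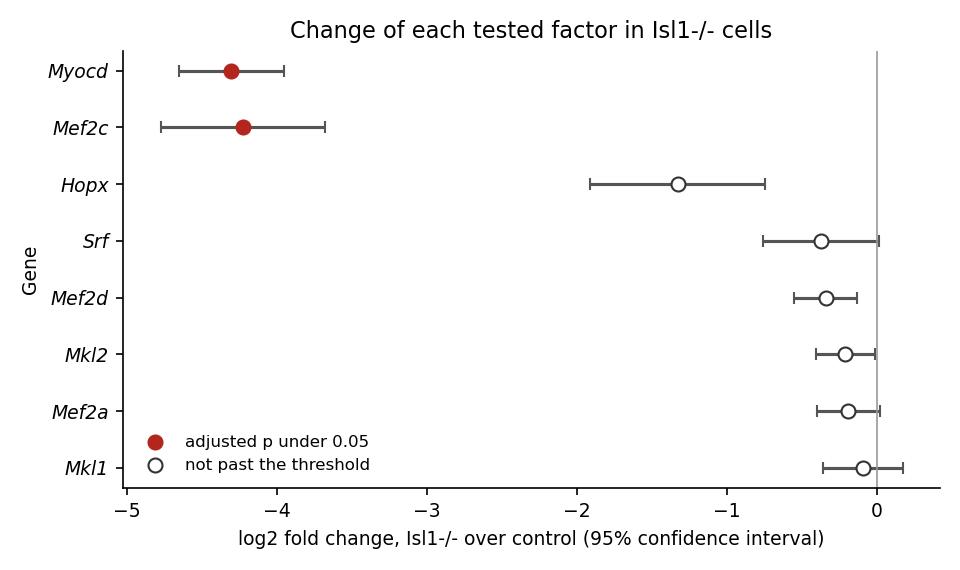
Log2 fold change of each tested factor in Isl1-/- over control CPCs, with 95% confidence intervals that are not adjusted for the number of genes. Filled points passed the adjusted threshold. Myocd (-4.30) and Mef2c (-4.23) stand apart from Hopx (-1.33) and from the other 5, which lie between -0.37 and -0.096.

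The deposited table lists several RefSeq transcripts for most members, 38 entries in all. Mef2c had 18 of them, 5957 to 6437 bases long, with 1413 to 1502 and 1525 to 1616 counts in the control clones and with 146 to 150 and 76 to 79 counts in Isl1-/- clones 1 and 2. All 18 fell, with log2 fold changes from -4.22 to -4.18 and adjusted p from 0.00251 to 0.00263 over 21072 entries, beside 1.8% of entries called lower. Both Myocd entries fell by 4.29 (adjusted p from 0.00100 to 0.00101). The entries of a gene differ by few exons and count mostly the same reads, so the 18 values are not independent and do not tell isoforms apart. None of the entries of Mef2a, Mef2d, Srf, Mkl1, Mkl2 or Hopx passed. The 3 Hopx entries lay between -1.32 and -1.29, and a short Mkl2 entry of 612 bases, with 16 to 19 counts per library, was at -0.48.

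Genes that work with these factors were examined next, from a list of 26 partners and regulators. Of 24 tested, 4 fell and none rose, beside 1.94% of all genes tested called lower, and the median was -0.069 on the log2 scale, against -0.0027 over all tested genes. None of the 4 had 10 counts in every library, so they entered the test through their control counts, and with that filter 20 partners were tested and 0 called. Smyd1, a muscle-restricted histone methyltransferase, had 730 and 786 counts in control and 24 and 9 counts in Isl1-/- clones 1 and 2, and fell by 5.97 on the log2 scale (SE 0.267, adjusted p = 0.00255). Hdac9, a class IIa histone deacetylase that binds MEF2 proteins, was represented by 65 and 78 control counts against 2 and 4 Isl1-/- counts, and fell by 4.96 (SE 0.376, adjusted p = 0.00825). Csrp3, the muscle LIM protein, was represented by 42 and 40 control counts against 2 and 1 Isl1-/- counts, and the ratio of its summed levels was 37.4 with a counting interval of 12.3 to 185 (adjusted p = 0.00902). Vgll2, a vestigial-like cofactor, had 46 and 64 counts in control, 6 in Isl1-/- clone 1 and 0 in clone 2 (adjusted p = 0.0467). The other 20, among them the ternary complex factors, the remaining class IIa deacetylases and the actin and MAP kinase signalling genes that act upstream of SRF and MEF2, lay between -0.49 and 0.33. The number of partners called changed with the library left out, as did the number of all genes called.

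Targets of SRF were divided by programme. Of 16 muscle targets, 15 were tested and 1 fell, beside 1.94% of all genes tested called lower, so a single call says little about the list. This was Actc1, cardiac alpha-actin, with 2923 and 2965 counts in control and 841 and 300 in Isl1-/- clones 1 and 2, which fell by 2.85 on the log2 scale (SE 0.406, adjusted p = 0.0397). All 15 fitted values were negative, beside 6412 of 12715 over all tested genes, and their median was -0.47, against -0.0027. Both Isl1-/- clones were below both control clones in 9 of the 15, beside 29% of all genes tested. The 14 targets other than Actc1 reached -1.58 without passing. The Isl1-/- clones differed here. The median departure from the control mean over these genes was -0.33 in Isl1-/- clone 1 and -0.99 in clone 2, and Acta2, named after its values were seen, was at 1638 and 1636 CPM in control, 1137 CPM in Isl1-/- clone 1 and 276 CPM in clone 2. Of 17 growth response and cytoskeletal targets, all tested, 1 fell, beside the same background. Egr3, an immediate early transcription factor, had 408 and 417 control counts against 334 and 273 in Isl1-/- clones 1 and 2, and fell by 0.90 (SE 0.0997, adjusted p = 0.0228). The median of this list was -0.21, and by library it was 0.034 in Isl1-/- clone 1 and -0.58 in clone 2. In both SRF lists the number of calls changed with the library left out, as did the number over all genes tested.

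The markers held in the MEF2 list and in the SRF muscle list belong mostly to different cell types. Acta2, Tagln, Cnn1, Myh11 and Smtn of the SRF muscle list are smooth muscle markers, and its Nppa, which was not tested, is a cardiomyocyte marker. Tnnt2, Actn2 and Myh6 of the MEF2 list are cardiomyocyte markers. The calls in these lists therefore do not compare the activity of SRF with that of MEF2. Most of the MEF2 targets that could be tested fell. Of 22 listed, 18 were tested, 13 fell and none rose, with a median of -3.75 on the log2 scale, against -0.0027 over all tested genes and a background of 1.94% called lower. The median was -3.68 with the 1 gene at 0 in both Isl1-/- clones set at its bound. Of the 13 called targets, 6 had at least 10 counts in every library and the others entered the test through their control counts. With that filter 10 targets were tested and 5 fell. Over all 18 tested targets the median departure from the control mean was -3.23 in Isl1-/- clone 1 and -4.33 in clone 2. These medians include targets with fewer than 10 Isl1-/- counts, whose lowest values depend on the prior count. They were not computed for the 10 targets alone. Myh6, the alpha myosin heavy chain, had 2205 and 2333 control counts against 30 and 21 in Isl1-/- clones 1 and 2, and fell by 6.92 (SE 0.113, adjusted p = 3.79e-05). Mybpc3, cardiac myosin-binding protein C, went from 547 and 550 counts to 8 and 3 counts (adjusted p = 0.000776). Smyd1 belongs to this list as well. The other 3 named targets were at or near 0 in the Isl1-/- clones. Xirp1, an actin-binding protein of the intercalated disc, had 160 and 182 control counts against 1 and 0 in Isl1-/- clones 1 and 2, a ratio of 468 with a counting interval of 83.4 to 18520 (adjusted p = 0.00277). Myl2, the ventricular regulatory light chain, had 39 and 43 control counts against 1 and 0, a ratio of 112 with an interval of 19.6 to 4481 (adjusted p = 0.0128). Ppargc1a, a coactivator of mitochondrial genes, had 14 and 20 counts in control and 0 in both Isl1-/- clones, at least 15.5-fold lower against a floor of 3 counts over the group (adjusted p = 0.0454). The 5 targets that did not pass lay between -2.01 and -0.0022. The number of MEF2 targets called also changed with the library left out, as did the number over all genes tested.

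**Figure D4:**
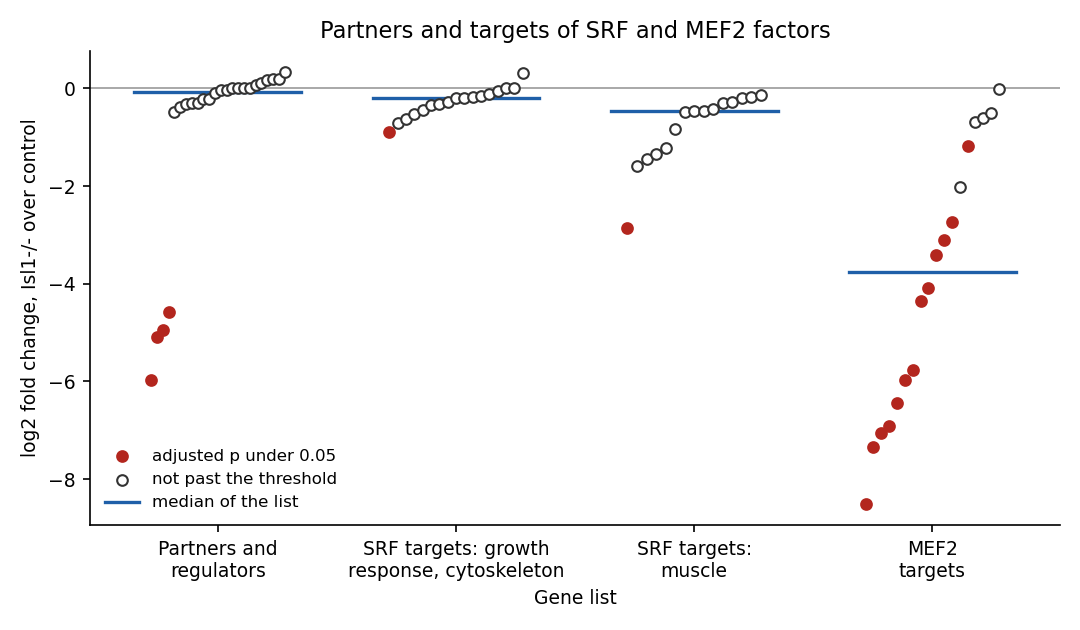
Log2 fold change in Isl1-/- over control CPCs for each tested gene of 4 lists, with filled points for genes past the adjusted threshold and a blue line at the median of each list. The partner list splits into 4 genes between -5.97 and -4.59 and 20 between -0.49 and 0.33, the SRF lists hold 1 called gene each, and 13 of 18 MEF2 targets passed, with a median of -3.75. Fitted values of genes with 3 or fewer counts in the Isl1-/- clones depend on the model's prior count.

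Other cell types in the sort were followed by their markers. The cardiomyocyte markers, 5 of 5 tested, fell, beside 1.94% of all genes tested called lower. Their summed level was 798 and 817 CPM in control and 26.3 and 24.6 CPM in Isl1-/- clones 1 and 2. Myocd, Mef2c and the MEF2 targets thus moved with the cardiomyocyte markers, of which Tnnt2, Actn2 and Myh6 are themselves in the MEF2 target list, and whether fewer cardiomyocytes account for the lower levels was not tested. Smooth muscle markers were at 2566 and 2578 CPM in control, 2176 CPM in Isl1-/- clone 1 and 747 CPM in clone 2. Only Myocd of these 6, itself 1 of the 9 factors, was called, beside 1.94% of all genes tested called lower. The other 5 of these markers are also in the list of SRF muscle targets, so the lower values of clone 2 in that list and in this sum are largely the same measurement. Fibroblast markers, which feeder cells would carry, stood at 2274, 2217, 1615 and 721 CPM and none of 8 was called. This sum too joins genes that differed in direction. Col1a1, Col1a2, Col3a1, Dcn and Lum had both Isl1-/- clones below both control clones, beside 29% of all genes tested. Fbln2 had both above, beside 29.1% of all genes tested, and Thy1 and Pdgfrb overlapped. Endothelial markers summed to 195, 196, 188 and 123 CPM, and none was called. The sum joins genes that lay on opposite sides of control. Pecam1 and Etv2 had both Isl1-/- clones above both control clones, beside 29.1% of all genes tested. Cdh5, Tek, Emcn, Cldn5 and Tie1 had both below, beside 29% of all genes tested, and Erg overlapped. Blood markers summed to 534, 545, 403 and 285 CPM, a sum carried by the embryonic globins Hbb-bh1 and Hba-x. Gata1, Tal1, Runx1 and Itga2b had both Isl1-/- clones above both control clones, beside 29.1% of all genes tested. Hbb-bh1, Hba-x and Hbb-y had both below, beside 29% of all genes tested, and Klf1 overlapped. Of the 8 only Runx1 was called, as higher, beside 0.503% of all genes tested. Myod1 and Myf5 of skeletal muscle were at 0 throughout. Endodermal, neural and pluripotent markers were at or below 55.4 CPM in sum. The part of these cells in the values of the 9 factors was not tested.

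**Figure D5:**
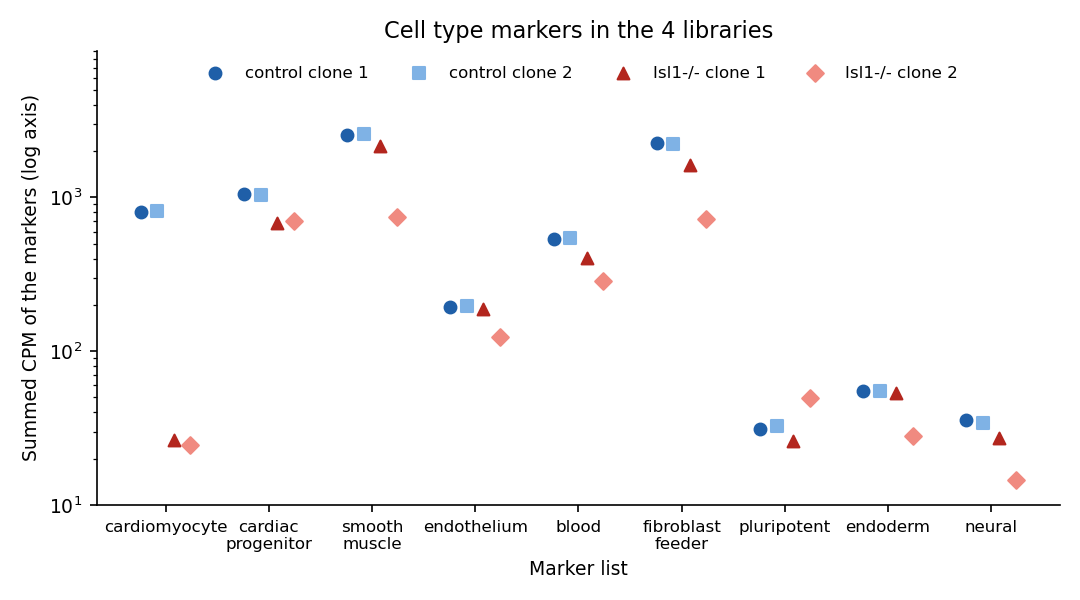
Summed CPM of each marker list per library on a log axis, without the skeletal muscle list, which was near 0. The cardiomyocyte sum is low in both Isl1-/- clones (24.6 to 26.3 CPM against 798 to 817 CPM), and Isl1-/- clone 2 is the lowest library for smooth muscle (747 CPM) and fibroblast markers (721 CPM).

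The genes whose pattern over the 4 libraries was nearest to Myocd and to Mef2c were taken from 10762 candidates by Euclidean distance between centred log2 CPM values. Nearest to Myocd were the pacemaker channel gene Hcn4 at 0.467, Mef2c at 0.486, Isl1 at 0.505, the Z-disc gene Nebl at 0.511 and Tnnt2, cardiac troponin T, at 0.513, where the median distance of all candidates was 4.27. Nearest to Mef2c were Tnnt2 at 0.124, the Z-disc gene Ldb3 at 0.460, Myocd at 0.486, Ccdc141 at 0.697 and the cardiac GATA factor Gata5 at 0.756, with a median of 4.32. Tnnt2 was measured at 215 and 222 CPM in control and at 13.4 and 7.89 CPM in Isl1-/- clones 1 and 2, so that, like Mef2c, it was lower in clone 2. These distances rest on 4 libraries and mostly describe the size of the difference between groups.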

How the data were processed

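Nkx2-5-GFP-positive CPCs of day 5 were profiled by stranded poly(A) RNA-Seq in 2 control and 2 Isl1-/- clones. Per the study's methods, reads were mapped to mm9 with STAR and exonic reads were counted per RefSeq transcript on both strands with HOMER; the versions are not given in the sources used here. The authors deposited raw counts, together with RPKM values that they computed per transcript length with edgeR. The deposited columns of the authors' own comparison (a mean of normalized counts as signal, a log2 fold change, its standard error and statistic as scores, and p-values) were not used.

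From the deposited counts, 1 entry per symbol was kept (highest summed count) and fitted with edgeR 4.0.16 in R 4.3.3 (TMM, filterByExpr, quasi-likelihood test, two-sided, all 4 libraries in 1 fit), and 12715 genes passed the filter. The transcript entries were also fitted together. DESeq2 1.42.0 was an alternative and gave the criteria of the study's methods. CPM used library totals scaled by TMM, and log2 CPM a prior count of 1. RPKM, as deposited, was used only to compare levels between genes. Scripts were tested on simulated data. Counting intervals and floors cover counting error only, since reads carried no molecular identifiers. The precision of every value is limited by the 2 clones per group, and the labels do not say whether clones were differentiated on separate days.

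The 9 members and all lists were chosen with earlier results of these data known. All members were named; Isl1 and Nkx2-5 served as checks; from each partner or target list the genes past the adjusted threshold were named, at most 6 with the largest absolute log2 fold change; and the 5 genes nearest to Myocd and to Mef2c among genes whose log2 CPM averaged 2 or more. Gene positions are from the NCBIM37 (mm9) annotation. Alternatives were other size factors, other filters on low counts, DESeq2, the replicate number as a block, all transcript entries for the adjustment, another entry for the RPKM shares, and each library left out in turn.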

Additional observations from a re-analysis of the deposited data

How the results depend on the processing

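Replicate numbers are shared by the groups, but same-numbered clones did not deviate together (r = 0.0144 over 12715 genes, across genes, which are not independent replicates). Adding that number to the fit as a block gave 454 called genes in place of 311, of which 294 were shared, and 2 members again, Myocd and Mef2c; SRF targets of muscle called became 3.

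Of 182 recomputed values, 140 were labelled the same, 32 moved, and 10, all fold changes, were stronger. A count was labelled the same when its ratio to the main count was small, so such counts could still differ. Fold changes were judged by direction and side of the threshold, and shares by their spread. No fold change reversed. Myocd and Mef2c passed in every alternative run, at -4.37 to -4.24 and -4.66 to -3.91 with each library left out. DESeq2 called 604 genes and 2 SRF targets of muscle. Without a filter on low counts 492 genes were called, and Hopx passed at -1.32. With at least 10 counts required in every library, 217 genes, 0 partners and 5 MEF2 targets were called, since genes near 0 in the Isl1-/- clones were then not tested. Using DESeq2's adjusted p in the study's criteria left 499 genes in place of 993. The share of Mef2c in the control MEF2 sum was 39.9% when the entry with the highest RPKM was taken.

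Leaving out each library in turn gave 27 to 6350 genes called, 2 to 7 members, 1 to 17 partners, 0 to 13 SRF targets of muscle, 0 to 16 SRF targets of growth response and cytoskeleton, 6 to 17 MEF2 targets, and 435 to 1534 genes by the study's criteria. The low ends were reached without a control clone and the high ends without an Isl1-/- clone, where the lone clone is assumed to vary like the control pair. In these fits Mef2a ranged from -0.27 to -0.12, Mef2d from -0.42 to -0.26, Srf from -0.62 to -0.17, Mkl2 from -0.28 to -0.14 and Hopx from -1.46 to -1.22, and each passed without an Isl1-/- clone (Mef2a without clone 1 alone). Depth limits Mef2b, which had 3 to 9 counts per library.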
